A study of Mus musculus with 4 samples.

Results

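The 39 genes described here encode proteins that carry cells from growth into DNA synthesis and through mitosis, and they were chosen by name. Each gene was read by the array probes whose gene symbol or transcript accession names it, provided that a probe was well above its local background on at least 1 array. All 39 genes met this condition, with 71 probes, out of 20628 genes that met it on the array. The cells were bone marrow-derived macrophages, grown from the marrow of male C57BL/6J mice in macrophage colony-stimulating factor, and each group was 1 Agilent array. The groups were Batf2-/- cells with R848, Batf2-/- cells without stimulation, wild-type cells with R848 and wild-type cells without stimulation. R848, a small-molecule agonist of the endosomal receptor TLR7, was used at 100 ng/ml for 8 h, and the unstimulated cells are labelled as taken at 0 h, so that R848 and the added time in culture cannot be told apart. Batf2 encodes a basic leucine zipper transcription factor. The labels give neither the number of mice nor the litter behind a culture. With 1 array in each group there is no replicate check of any difference and no test was possible, so the precision of the values cannot be judged from replicates.

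As background, progress through the cell cycle is driven by cyclin-dependent kinases, which are switched on by cyclins and held back by inhibitor proteins. Cyclin D with Cdk4 and cyclin E with Cdk2 act at entry into DNA synthesis, and Cdk1 with cyclins A and B drives mitosis, when checkpoint kinases hold chromosomes back until every kinetochore is attached to the spindle. Macrophages grown from marrow divide in response to macrophage colony-stimulating factor, and many transcripts of mitosis are made mostly in dividing cells, shortly before division.

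Promoters of 32 of the 39 genes, as 34 windows from 250 bases before to 50 bases after the transcription start, were in the RefSeq table used here (build GRCm38.p6). Each window was searched for TTTGAA, or its reverse complement TTCAAA, as the core of the cell cycle genes homology region, known as a binding element of the DREAM and MuvB complexes. It was also searched for CCAAT, or the reverse complement ATTGG, as the element bound by NF-Y. A TTTGAA and a CCAAT match can share at most 1 base, and a match is a description of letters only. The promoters printed are those of 5 genes that were at least 2-fold lower with R848 in both genotypes (Cdk1, Cenpa, Ttk, Kif11 and Nusap1), followed by that of Cdkn1a, which was higher with R848. They are printed 5′ to 3′ on the strand of the gene, with both motifs in capitals. The windows lie at chr10:69352863-69353162 (minus strand), chr5:30666636-30666935 (plus), chr9:83834439-83834738 (plus), chr19:37376132-37376431 (plus), chr2:119618048-119618347 (plus) and chr17:29093519-29093818 (plus, the downstream one of the starts listed for this gene).
Cdk1: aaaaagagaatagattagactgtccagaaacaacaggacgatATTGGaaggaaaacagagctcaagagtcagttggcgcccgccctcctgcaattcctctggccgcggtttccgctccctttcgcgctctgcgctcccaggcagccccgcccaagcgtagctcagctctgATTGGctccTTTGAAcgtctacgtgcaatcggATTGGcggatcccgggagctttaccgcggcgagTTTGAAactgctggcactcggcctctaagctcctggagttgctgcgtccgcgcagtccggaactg
Cenpa: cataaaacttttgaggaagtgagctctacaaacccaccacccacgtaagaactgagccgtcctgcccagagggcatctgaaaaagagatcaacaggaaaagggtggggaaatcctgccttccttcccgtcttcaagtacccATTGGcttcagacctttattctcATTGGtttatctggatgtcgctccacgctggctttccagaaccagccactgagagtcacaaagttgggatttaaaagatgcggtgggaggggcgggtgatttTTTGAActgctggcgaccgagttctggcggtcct
Ttk: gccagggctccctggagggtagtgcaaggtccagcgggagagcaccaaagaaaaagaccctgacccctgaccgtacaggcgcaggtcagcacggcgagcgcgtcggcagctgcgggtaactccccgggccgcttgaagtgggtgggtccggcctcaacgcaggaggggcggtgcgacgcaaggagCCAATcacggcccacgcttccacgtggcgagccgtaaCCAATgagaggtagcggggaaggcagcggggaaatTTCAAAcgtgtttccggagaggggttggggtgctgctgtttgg
Kif11: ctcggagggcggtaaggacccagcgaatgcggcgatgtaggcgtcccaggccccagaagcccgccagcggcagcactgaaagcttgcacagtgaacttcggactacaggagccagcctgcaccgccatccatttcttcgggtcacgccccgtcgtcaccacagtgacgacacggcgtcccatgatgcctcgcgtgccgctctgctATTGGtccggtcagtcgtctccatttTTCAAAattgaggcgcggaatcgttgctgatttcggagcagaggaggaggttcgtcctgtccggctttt
Nusap1: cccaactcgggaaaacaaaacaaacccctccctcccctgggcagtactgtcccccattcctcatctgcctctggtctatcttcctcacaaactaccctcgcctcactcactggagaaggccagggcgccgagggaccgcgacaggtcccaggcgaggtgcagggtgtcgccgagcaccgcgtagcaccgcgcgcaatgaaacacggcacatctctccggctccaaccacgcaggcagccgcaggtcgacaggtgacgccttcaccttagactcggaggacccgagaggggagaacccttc
Cdkn1a: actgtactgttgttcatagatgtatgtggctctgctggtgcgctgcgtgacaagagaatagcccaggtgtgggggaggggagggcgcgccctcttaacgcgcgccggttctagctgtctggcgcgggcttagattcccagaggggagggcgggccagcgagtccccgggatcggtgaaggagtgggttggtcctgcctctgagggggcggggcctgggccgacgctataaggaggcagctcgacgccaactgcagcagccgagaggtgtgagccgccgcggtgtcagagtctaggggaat
The Cdk1 window held TTTGAA 71 and 15 bases upstream of the start and ATTGG 208, 80 and 48 bases upstream. In Cenpa, TTTGAA began 16 bases downstream of the start, with ATTGG 109 and 86 bases upstream. Ttk carried TTCAAA 7 bases downstream and CCAAT 65 and 28 bases upstream, and Kif11 carried TTCAAA 19 bases and ATTGG 45 bases upstream. Neither motif was found in the windows of Nusap1 and Cdkn1a.

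TTTGAA in either orientation was present in promoters of 20 of the 32 genes (62.5%), against 20.2% of 27025 genes and 17.9% of all 32851 promoters in the table. CCAAT was present in 23 of the 32 (71.9%), against 41.1% of genes and 37.4% of promoters, and 18 of the 32 held both motifs, against 8.97% of genes. Of the 17 genes with a promoter that were at least 2-fold lower in either genotype, 10 held TTTGAA and 13 held CCAAT, and of the other 15 genes 10 held TTTGAA and 10 held CCAAT. The windows came from a list that was assembled for its function, so these shares describe the list.

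All 4 arrays were hybridised on 1 slide and read in 1 scan, with 62.2% to 72.6% of 59305 spots well above background and none saturated. Batf2, the deleted gene, had a normalised signal of 4.28 (not well above background) with R848 and 10.2 without it in Batf2-/- cells, against 35.7 and 12.3 in wild-type cells. With R848 the difference of Batf2-/- from wild type was -2.63 or lower on the log2 scale, and untreated it was -0.27. Where this probe lies relative to the deleted part is not stated in the labels, and its signal is no full check of the deletion. The 9 macrophage markers examined, among them Csf1r, Adgre1 and Cd68, were well above background on every array. Summed over 12 markers of granulocyte precursors and progenitors, the signal was 7516 with R848 and 9555 without it in Batf2-/- cells, against 13344 and 23119 in wild-type cells, with 12 of 12 markers well above background on each array. Bright probes weigh most in such a sum, with Camp alone at 3764 with R848 in Batf2-/- cells. A normalised signal of 100 here and in what follows is the level of the 75th percentile of an array, signals of different probes are not compared with each other, and every difference is on the log2 scale.

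**Figure D1:**
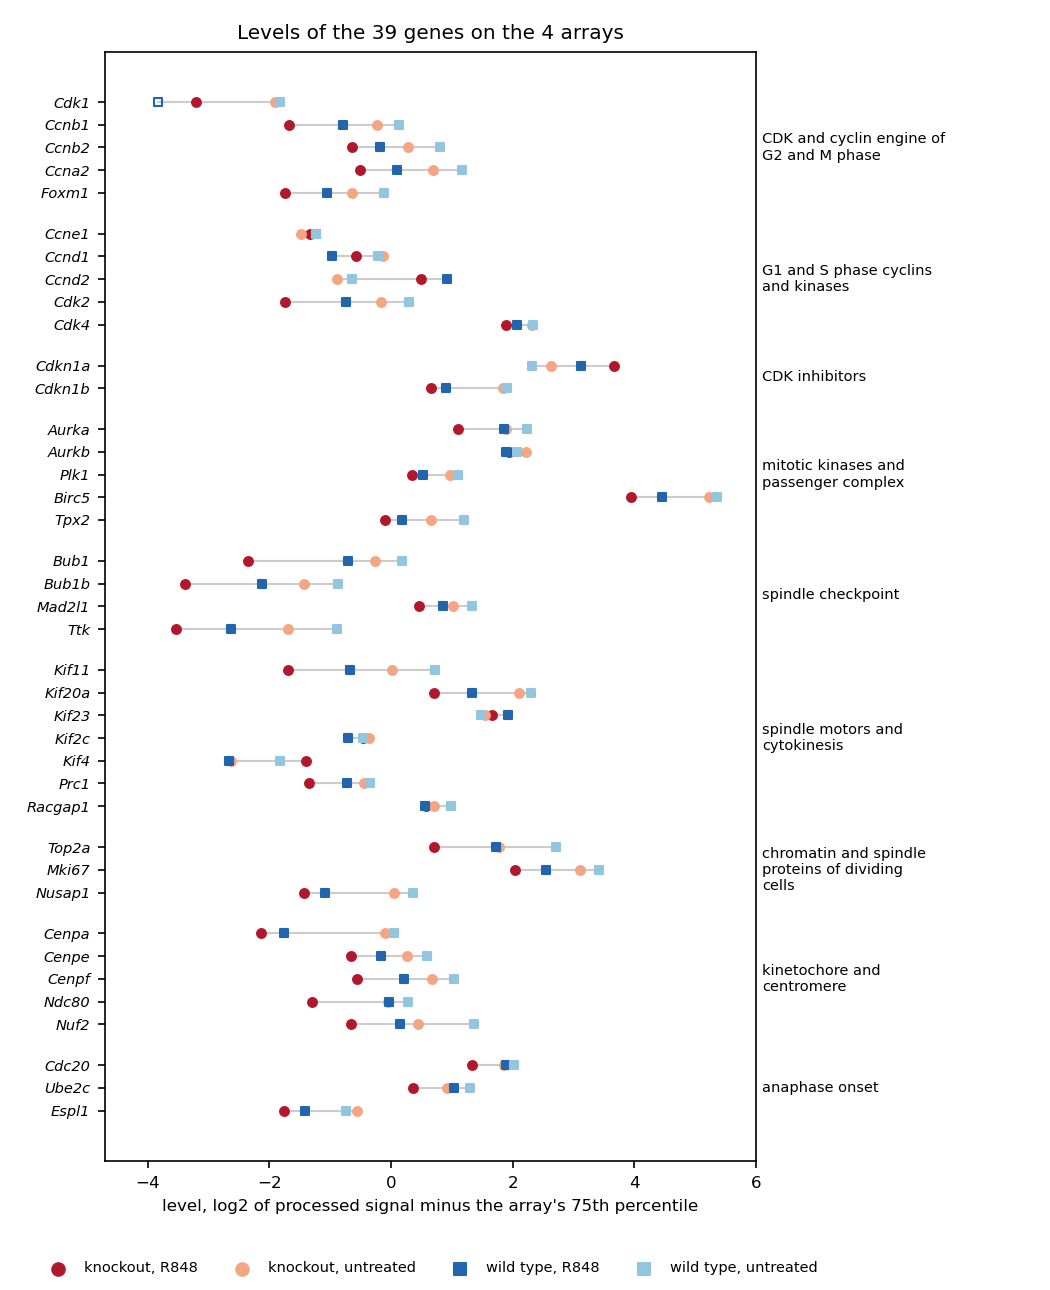
Level of each of the 39 genes on the 4 arrays, as log2 of the processed signal minus the 75th percentile of the array (horizontal axis), with genes grouped by role. Red circles are Batf2-/- cells (dark with R848, pale untreated), blue squares are wild-type cells (dark with R848, pale untreated), and the open square marks Cdk1, which was not well above background in wild-type cells with R848; in most genes the dark symbols lie left of the pale ones of the same colour.

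With R848, transcripts of mitosis were lower in both genotypes. In Batf2-/- cells 20 of the 39 genes fell at least 2-fold, against 6.57% of 19840 genes measured on the array. In the same cells 3 rose at least 2-fold (Ccnd2, Cdkn1a and Kif4), a share close to the 6.84% of all genes. In wild-type cells 10 fell at least 2-fold, against 7.01% of 18763 genes, and 1 rose at least 2-fold (Ccnd2), against 6.19%. The median response was -1.05 in Batf2-/- cells and -0.84 in wild-type cells, where the medians of all genes were -0.06 and -0.03. The response was below 0 for 34 genes in Batf2-/- cells and for 36 in wild-type cells, against 55.5% and 52.7% of all genes. In these bulk samples, fewer dividing cells and less RNA per cell cannot be told apart. Most markers of granulocyte precursors and progenitors moved the same way, with 5 of 12 at least 2-fold lower with R848 in Batf2-/- cells and 7 of 12 in wild-type cells. Camp went the other way, at 0.44 in Batf2-/- and 0.52 in wild-type cells, as did Flt3 in Batf2-/- cells, at 0.19. Markers of basophils and mast cells were below 0 throughout. In Batf2-/- cells 3 of 5 measured were at least 2-fold lower (median -1.002), and 4 of 6 in wild-type cells (median -1.20). With R848 only 2 of 7 were well above background in Batf2-/- cells. Mcpt8, Fcer1a and Ms4a2 therefore entered the Batf2-/- median as bounds, and the 2 medians are not alike. The part of either cell type in the result was not tested. At 1.5-fold, 26 genes were lower and 3 higher in Batf2-/- cells, against 15.8% and 13.6% of genes, and 24 were lower and 2 higher in wild-type cells, against 16.0% and 13.0%. Normexp background correction with an offset of 50, which shrinks differences of dim probes, left 10 genes at least 2-fold lower and 1 higher in Batf2-/- cells and 3 lower in wild-type cells, with medians of -0.72 and -0.68. The share of all genes at least 2-fold lower under that correction was 2.74% in Batf2-/- and 3.04% in wild-type cells, and the share higher was 4.06% and 3.71%.

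The responses of the 2 genotypes share no array. Over the 39 genes their Pearson r was 0.79 and their Spearman rho 0.78, and without Kif4 the Pearson r was 0.88, given as a description across genes that are not independent. Of the 21 genes at least 2-fold lower in either genotype, 9 were so in both (Cdk1, Ccna2, Cdk2, Bub1b, Ttk, Kif11, Cenpa, Nuf2 and Nusap1), 11 in Batf2-/- cells alone and 1, Tpx2, in wild-type cells alone. The scanner software's own error of a single-array difference had a median of 0.21 and ranged from 0.204 to 0.430 over the 39 genes. The spread among the 10 spots of 295 replicated probes was smaller, with a root mean square SD of 0.0915 for the Batf2-/- response and 0.107 for the wild-type response. For the 11 such probes with a level below -2, it was 0.38 and 0.43. Both measures cover technical error of the spots and leave out the variation between cultures.

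**Figure D2:**
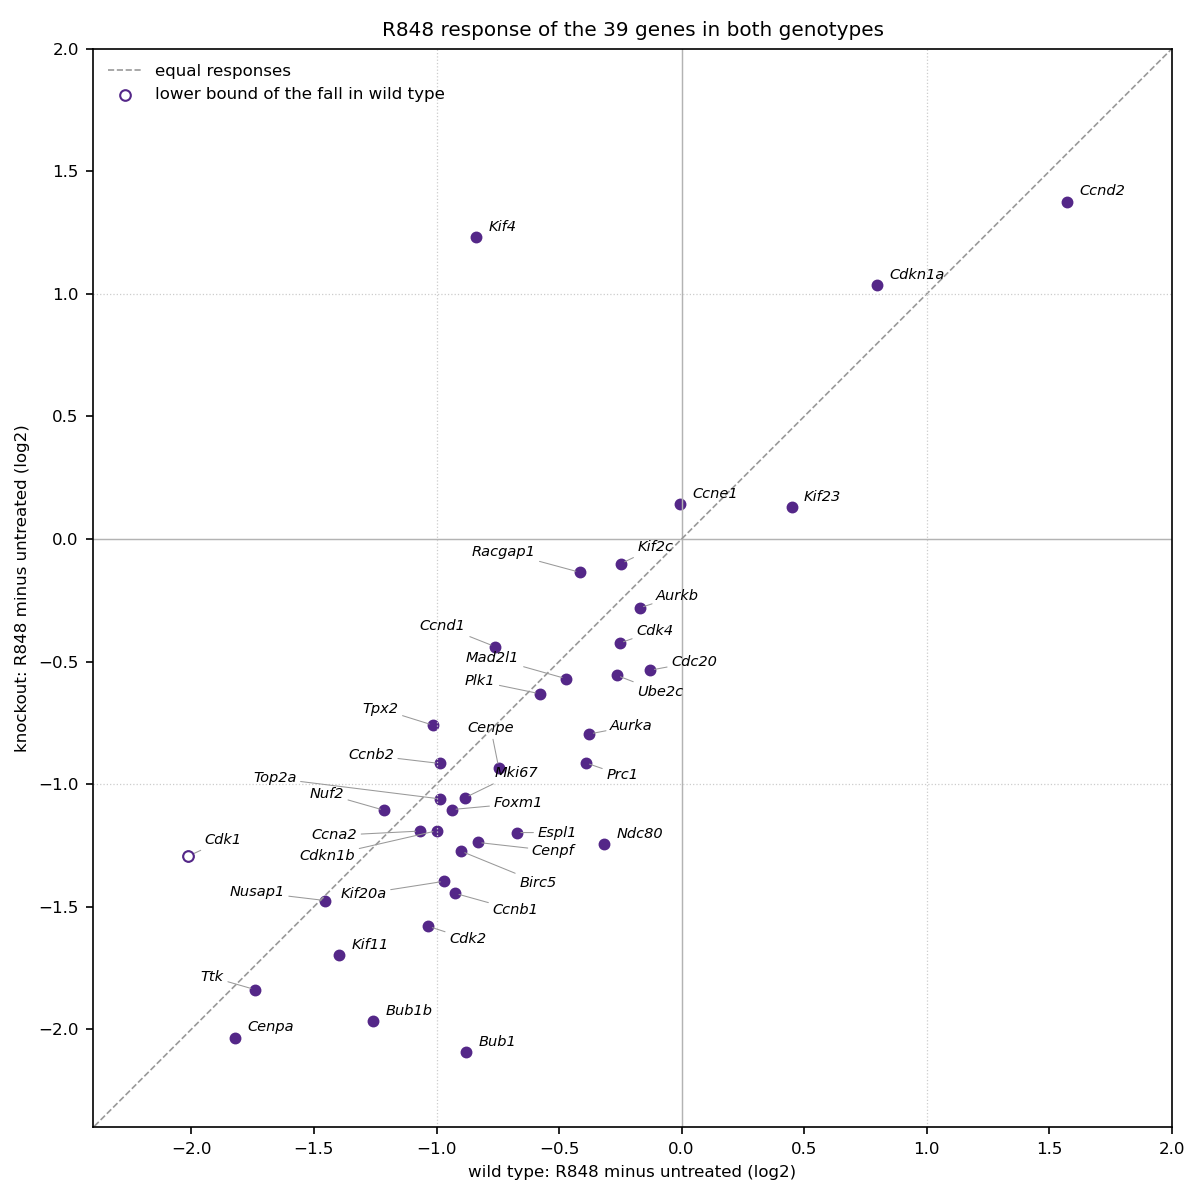
Response to R848 (R848 minus untreated, log2) of each of the 39 genes in Batf2-/- cells (vertical axis) and in wild-type cells (horizontal axis). The dashed line marks equal responses and dotted lines mark 2-fold. The open circle, labelled a lower bound, is Cdk1 at its measured response of -2.01 in wild-type cells, where its R848 signal was not well above background. Kif4 lies alone at the upper left, at 1.23 in Batf2-/- and -0.84 in wild-type cells.

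Between genotypes, most of the 39 genes had a lower signal in Batf2-/- cells. With R848, 6 of the 39 genes were at least 2-fold lower in Batf2-/- than in wild-type cells (Bub1, Bub1b, Ndc80, Top2a, Kif11 and Cdk2), against 2.45% of 18768 genes, and 1 was higher (Kif4), against 2.34%. In untreated cells none of the 39 reached 2-fold in either direction, against 3.18% of 20301 genes lower and 2.80% higher. The median difference was -0.50 with R848 and -0.32 without it, where all genes had medians of 0.04 and 0.06. The difference was below 0 for 32 genes with R848 and for 33 in untreated cells, against 45.1% and 43.2% of all genes. Both differences were below 0 for 30 of the 39 genes. At 1.5-fold, 16 genes were lower and 2 higher with R848, against 6.45% and 8.68% of genes. In untreated cells 5 were lower at that fold and none higher, against 7.84% and 9.63%. Markers of granulocyte precursors and progenitors were also lower in Batf2-/- cells, 8 of 12 at least 2-fold both with and without R848, with medians of -1.86 and -1.96. Markers of basophils and mast cells summed to 44.7 with R848 and 105 without it in Batf2-/- cells, against 730.3 and 1776 in wild-type cells, and 2 and 5 of 7, against 6 and 6, were well above background, with Cyp11a1 on none. Of 8 markers of erythroid cells and megakaryocytes, 4 were below 0 with R848 (median -0.04, none 2-fold lower) and 7 in untreated cells (median -0.73, 2 at least 2-fold lower). The part of these cells in the result was not tested. With normexp correction no gene of the 39 reached 2-fold with R848, against 0.783% of all genes lower and 0.550% higher, and the median was -0.35. From the intensities in the authors' deposited table, 3 genes were at least 2-fold lower, against 1.73% of all genes.

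The difference between the responses themselves, Batf2-/- minus wild type, had a median of -0.17 and was below 0 for 29 of the 39 genes. The median of all genes was -0.02, and 51.9% of them were below 0. Bub1 alone fell 2-fold or more further in Batf2-/- cells, against 2.50% of 18457 genes, and Kif4 alone stood 2-fold or more higher, against 3.14%. The 11 genes that passed 2-fold in Batf2-/- cells alone had differences of responses between -1.22 (Bub1) and -0.08 (Top2a), and for 9 of the 11 this was under 1.5-fold. Over all 39 genes, 3 were lower and 2 higher by 1.5-fold, against 8.15% and 9.54% of genes. With normexp correction neither Bub1 nor Kif4 passed 2-fold.

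**Figure D3:**
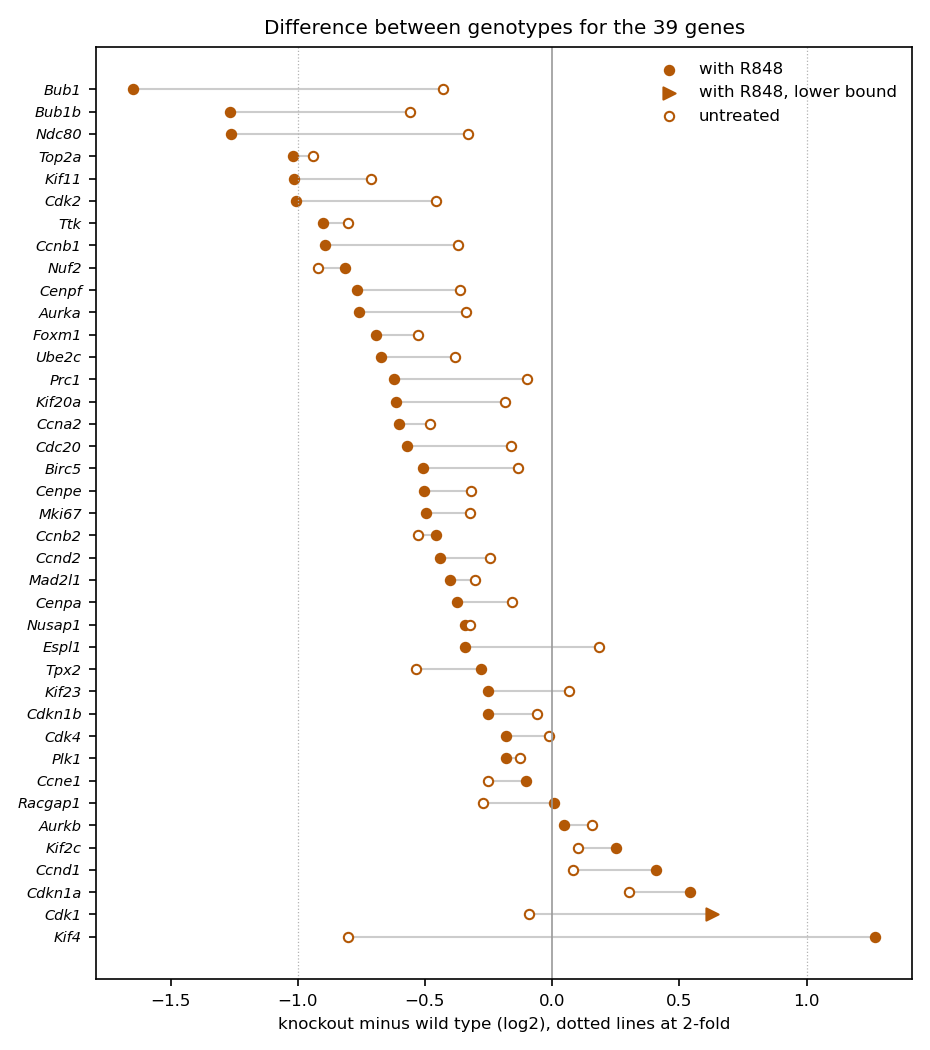
Difference between genotypes (Batf2-/- minus wild type, log2) for each of the 39 genes, with R848 (filled circles) and untreated (open circles), ordered by the difference with R848. Dotted lines mark 2-fold. The triangle, labelled a lower bound, is Cdk1 at its measured difference, with a wild-type signal not well above background. With R848 6 genes lie beyond the left line, and none does untreated.

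Of 5 genes of entry into mitosis (Cdk1, its cyclins and Foxm1), 4 fell at least 2-fold in Batf2-/- cells and 2 in wild-type cells. Of all genes 6.57% and 7.01% fell as much. In this and the roles that follow, a single gene past 2-fold says little about a role of so few genes. All 5 genes of entry into mitosis were below 0 in both genotypes. Cdk1, the kinase that triggers entry into mitosis, had a normalised signal of 10.9 with R848 and 26.6 untreated in Batf2-/- cells, against 7.04 with R848 and 28.4 untreated in wild-type cells. At the measured signals Cdk1 fell 2.45-fold in Batf2-/- cells and 4.04-fold in wild-type cells. The wild-type signal with R848 was not well above background, and the scanner error of the wild-type response was 0.40. With R848 Cdk1 was 1.54-fold higher in Batf2-/- than in wild-type cells, a difference of 0.63 with a scanner error of 0.43. Untreated, the difference was -0.09. With normexp correction its responses were -0.55 in Batf2-/- and -0.70 in wild-type cells. Ccna2, the cyclin that partners Cdk2 in DNA synthesis and Cdk1 afterwards, read 70.3 with R848 and 161 untreated in Batf2-/- cells, against 107 with R848 and 224 untreated in wild-type cells. It fell by 1.19 in Batf2-/- cells and fell by 1.07 in wild-type cells, and its second probe gave -1.16 and -1.03. Ccnb1, a B-type cyclin that activates Cdk1, read 31.2 with R848 and 85.1 untreated in Batf2-/- cells, against 58.0 with R848 and 110.0 untreated in wild-type cells. Its response was -1.45 in Batf2-/- and -0.92 in wild-type cells, and the 3 dimmer probes of Ccnb1 gave smaller changes, -0.76 to -0.62 and -0.59 to -0.16. Ccnb2, another B-type cyclin, came close to 2-fold in both, at -0.92 and -0.99. Foxm1, a transcription factor that switches on genes of mitosis, read 29.7 with R848 and 63.9 untreated in Batf2-/- cells, against 48.1 with R848 and 92.1 untreated in wild-type cells. Its signal was lowest with R848 in Batf2-/- cells, and its responses were -1.10 and -0.94.

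Genes of the passage from G1 phase into DNA synthesis did not move together, and in each genotype 1 of 5 rose and 1 fell at least 2-fold. Of all genes, 6.84% rose and 6.57% fell as much in Batf2-/- cells, and 6.19% and 7.01% in wild-type cells. Ccnd2, a D-type cyclin that partners Cdk4, rose in both genotypes, with a normalised signal of 140.1 with R848 and 54.0 untreated in Batf2-/- cells, against 190.2 with R848 and 64.0 untreated in wild-type cells. Its responses were 1.38 in Batf2-/- and 1.57 in wild-type cells, and all 3 of its probes were higher with R848, at 0.71 to 1.67 and 0.94 to 1.99. Ccnd1, another D-type cyclin, went the other way without reaching 2-fold, at -0.44 and -0.76. Cdk2, the kinase of DNA synthesis, read 30.0 with R848 and 89.6 untreated in Batf2-/- cells, against 60.1 with R848 and 123 untreated in wild-type cells. It fell by 1.58 in Batf2-/- cells and fell by 1.03 in wild-type cells, and with R848 it was 2.01-fold lower in Batf2-/- than in wild-type cells. Cdk4 differed by less than 2-fold, at -0.42 and -0.25, and 3 further probes of Cdk4 lay between -0.24 and 0.01. Ccne1, the cyclin E that partners Cdk2, hardly differed among the arrays, at 39.6 with R848 and 35.8 untreated in Batf2-/- cells, against 42.5 with R848 and 42.7 untreated in wild-type cells.

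Of 2 inhibitors of cyclin-dependent kinases, 1 rose and 1 fell at least 2-fold in Batf2-/- cells, and neither passed 2-fold in wild-type cells. Of all genes, 6.84% rose and 6.57% fell as much in Batf2-/- cells. Cdkn1a, which encodes p21 and is a well known target of p53, had a normalised signal of 1264 with R848 and 616 untreated in Batf2-/- cells, against 869 with R848 and 500.0 untreated in wild-type cells. Both R848 arrays were above both untreated ones, with a rise of 1.04 in Batf2-/- cells and a response of 0.80 in wild-type cells. The dimmer probes of Cdkn1a, both between 16.3 and 27.3 in signal, gave -0.03 and 0.55 in Batf2-/- and 0.03 and -0.24 in wild-type cells. Cdkn1b, which encodes p27 and is high in resting cells, read 157 with R848 and 359 untreated in Batf2-/- cells, against 187 with R848 and 374 untreated in wild-type cells. It fell by 1.19 in Batf2-/- cells, and its wild-type response of -0.998 was just short of 2-fold. Its second probe gave -1.36 and -1.08, and the untreated genotypes differed by -0.06.

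Among the mitotic kinases and their partners, 1 of 5 genes fell at least 2-fold in each genotype. Of all genes 6.57% fell as much in Batf2-/- and 7.01% in wild-type cells. Birc5, which encodes survivin, a subunit of the chromosomal passenger complex, read 1548 with R848 and 3742 untreated in Batf2-/- cells, against 2203 with R848 and 4112 untreated in wild-type cells. It fell by 1.27 in Batf2-/- cells, its wild-type response was -0.90, and its second probe gave -1.32 and -1.14. Tpx2, the spindle factor that activates Aurora A, read 93.4 with R848 and 158 untreated in Batf2-/- cells, against 114 with R848 and 229 untreated in wild-type cells. Its response was -0.76 in Batf2-/- cells, and it fell by 1.01 in wild-type cells. Aurka, the Aurora A kinase of the spindle poles, gave -0.80 and -0.38, and Plk1, the polo-like kinase that acts throughout mitosis, -0.63 and -0.58. Aurkb, the Aurora B kinase of the passenger complex, differed by -0.28 and -0.17 at its brighter probe. Its dimmer probe, with a signal of 8.20 with R848 and 26.3 untreated in Batf2-/- cells against 20.9 and 29.4 in wild-type cells, gave -1.68 and -0.50.

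In the spindle checkpoint 3 of 4 genes fell at least 2-fold with R848 in Batf2-/- cells and 2 of 4 in wild-type cells. Of all genes 6.57% and 7.01% fell as much. The median difference of the 4 checkpoint genes between genotypes with R848 was -1.08. Bub1, a checkpoint kinase of the kinetochore, had a normalised signal of 19.6 with R848 and 83.8 untreated in Batf2-/- cells, against 61.4 with R848 and 113 untreated in wild-type cells. The Batf2-/- array with R848 stood far below the other 3. Bub1 fell by 2.10 in Batf2-/- cells, a 4.27-fold change, its wild-type response was -0.88, and with R848 the signal was 3.13-fold lower in Batf2-/- than in wild-type cells. Bub1b, which encodes the checkpoint protein BubR1, read 9.55 with R848 and 37.3 untreated in Batf2-/- cells, against 23.0 with R848 and 54.9 untreated in wild-type cells. It fell by 1.97 in Batf2-/- cells and fell by 1.26 in wild-type cells, and with R848 it was 2.41-fold lower in Batf2-/- cells. Ttk, the checkpoint kinase also called Mps1, read 8.64 with R848 and 30.9 untreated in Batf2-/- cells, against 16.1 with R848 and 54.0 untreated in wild-type cells. Both R848 arrays were low, the responses were -1.84 and -1.74, and of its 3 other probes 2 also fell more than 2-fold in both genotypes and 1 stood at 0.12 and -0.77. Mad2l1, which inhibits the anaphase-promoting complex until chromosomes are attached, gave -0.57 and -0.47, and its dimmer probe 0.22 and -0.87. In all 4 genes the untreated signal too was lower in Batf2-/- cells, with differences of -0.30 to -0.80, none of them 2-fold.

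Of 5 kinetochore and centromere genes 4 fell at least 2-fold in Batf2-/- cells and 2 in wild-type cells. Of all genes 6.57% and 7.01% fell as much. Cenpa, the histone H3 variant that marks centromeres, had a normalised signal of 22.7 with R848 and 93.1 untreated in Batf2-/- cells, against 29.4 with R848 and 104 untreated in wild-type cells. The R848 arrays were low and the untreated arrays high in both genotypes, and the responses of -2.03 and -1.82 differed by -0.21. Ndc80, which binds spindle microtubules at the kinetochore, read 40.8 with R848 and 96.7 untreated in Batf2-/- cells, against 97.9 with R848 and 122 untreated in wild-type cells. Its Batf2-/- array with R848 was below the other 3, with responses of -1.24 and -0.31, and with R848 it was 2.40-fold lower in Batf2-/- than in wild-type cells. Nuf2, the partner of Ndc80 in the same complex, did not share that pattern and read 63.3 with R848 and 136 untreated in Batf2-/- cells, against 111 with R848 and 258 untreated in wild-type cells. It fell by 1.11 in Batf2-/- cells and fell by 1.21 in wild-type cells, and its dimmer probe, in an area of the slide with a local shift of signal, gave 0.71 and 1.58. Averaging both probes turned the wild-type response to 0.18. Cenpf, a kinetochore protein that accumulates in G2 phase, gave -1.24 and -0.83, and its second probe -1.75 and -0.99. Cenpe, a kinetochore motor, gave -0.93 and -0.75, and its only probe also lay in such an area.

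Of 3 genes of anaphase onset 1 fell at least 2-fold in Batf2-/- cells and none did in wild-type cells. Of all genes 6.57% and 7.01% fell as much. All 3 anaphase genes were below 0 in both genotypes. Espl1, which encodes separase, the protease that cuts cohesin, read 29.6 with R848 and 68.0 untreated in Batf2-/- cells, against 37.6 with R848 and 59.9 untreated in wild-type cells. It fell by 1.20 in Batf2-/- cells and its wild-type response was -0.67. Cdc20, an activator of the anaphase-promoting complex, gave -0.54 in Batf2-/- and -0.13 in wild-type cells. Its second probe gave -0.30 and -0.66, so that the difference of responses was -0.41 at the brighter and 0.36 at the dimmer probe. Ube2c, the ubiquitin-conjugating enzyme of that complex, gave -0.56 and -0.27. Cdc20 read 251 with R848 and 363 untreated in Batf2-/- cells, against 372 with R848 and 406 untreated in wild-type cells. Ube2c read 129 with R848 and 189 untreated in Batf2-/- cells, against 205 with R848 and 246 untreated in wild-type cells. In both genes the Batf2-/- array with R848 was the lowest of the 4.

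Motors and proteins of cytokinesis were mixed. At 2-fold, 2 of 7 were lower and 1 higher with R848 in Batf2-/- cells, and 1 of 7 was lower in wild-type cells. Of all genes, 6.57% were lower and 6.84% higher in Batf2-/- cells, and 7.01% were lower in wild-type cells. Kif11, the motor that pushes the spindle poles apart, had a normalised signal of 31.1 with R848 and 101 untreated in Batf2-/- cells, against 62.8 with R848 and 165 untreated in wild-type cells. It fell by 1.70 in Batf2-/- cells and fell by 1.40 in wild-type cells, and with R848 it was 2.02-fold lower in Batf2-/- cells. Kif20a, a motor needed for cytokinesis, read 164 with R848 and 431 untreated in Batf2-/- cells, against 251 with R848 and 491 untreated in wild-type cells. It fell by 1.40 in Batf2-/- cells and had a response of -0.97 in wild-type cells.

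Kif4, a motor that binds chromosomes, and Ccne1 were the 2 genes whose responses had opposite signs in the genotypes, and for Ccne1 these were 0.14 and -0.01. The normalised signal of Kif4 was 38.1 with R848 and 16.2 untreated in Batf2-/- cells, against 15.8 with R848 and 28.3 untreated in wild-type cells. The Batf2-/- array with R848 was the highest of the 4, whereas in wild-type cells the R848 array was below the untreated one. It rose by 1.23 in Batf2-/- cells, against a wild-type response of -0.84, and with R848 it was 2.41-fold higher in Batf2-/- than in wild-type cells. It has 1 probe on the array, the scanner error of these differences was 0.227 to 0.256, and with normexp correction the difference of responses was 0.87 in place of 2.07.

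At the probe used for each gene, the remaining genes of this role changed by less than 2-fold. Prc1, which bundles microtubules of the central spindle, gave -0.91 in Batf2-/- and -0.39 in wild-type cells. Its 2 dimmer probes gave -0.76 and -0.42 in Batf2-/- cells, and -0.66 and -1.25 in wild-type cells. A brighter probe of Prc1, not measured in untreated wild-type cells, gave -1.25 in Batf2-/- cells. It lay in an area of the slide with a local shift of signal. Racgap1, a subunit of centralspindlin, gave -0.14 and -0.42. Kif2c, a motor that takes microtubules apart, gave -0.10 and -0.25, and its dimmer probe, not well above background with R848 in Batf2-/- cells, gave -1.10 or lower in Batf2-/- and -0.55 in wild-type cells. Kif23, the motor of centralspindlin, depended on the probe. Its brightest probe, designed on the cDNA AK076271, read 318 with R848 and 290.5 untreated in Batf2-/- cells, against 379 with R848 and 277 untreated in wild-type cells, with responses of 0.13 and 0.45. The other probes of Kif23, both on the RefSeq transcript NM_024245, gave -1.61 and -1.94 in Batf2-/- and -1.14 and -0.95 in wild-type cells, with 1 of them reading 56.8 with R848 and 173 untreated in Batf2-/- cells against 125 and 275 in wild-type cells. With R848 these probes were 1.14 and 1.87 lower in Batf2-/- than in wild-type cells on the log2 scale.

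Of Top2a, Mki67 and Nusap1, all widely used as marks of dividing cells, 3 of 3 fell at least 2-fold in Batf2-/- cells. In wild-type cells 1 of 3, Nusap1, fell as much, and Top2a and Mki67 were lower by less than 2-fold. Of all genes 6.57% fell at least 2-fold in Batf2-/- and 7.01% in wild-type cells. Top2a, the topoisomerase that untangles chromosomes, had a normalised signal of 164 with R848 and 341 untreated in Batf2-/- cells, against 331 with R848 and 655 untreated in wild-type cells. The untreated wild-type array was the highest, with R848 the signal was 2.02-fold lower in Batf2-/- than in wild-type cells, and in untreated cells the difference was -0.94. Its responses were -1.06 and -0.98, and its 3 dimmer probes gave -0.70 to -0.67 and -1.50 to -0.41. Mki67, which encodes the Ki-67 antigen of the chromosome surface, read 413 with R848 and 858 untreated in Batf2-/- cells, against 583 with R848 and 1074 untreated in wild-type cells. It fell by 1.05 in Batf2-/- cells and gave -0.88 in wild-type cells. Nusap1, a microtubule-bundling protein of the spindle, read 37.1 with R848 and 103 untreated in Batf2-/- cells, against 47.0 with R848 and 129 untreated in wild-type cells. It fell by 1.48 in Batf2-/- cells and fell by 1.45 in wild-type cells, and with R848 the genotypes differed by -0.34.

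Of the 71 probes, 20 were the only probe of their gene, and 19 genes had several, up to 4. In Batf2-/- cells 60 of 71 probes were lower with R848, 31 of them at least 2-fold, and 4 rose at least 2-fold. In wild-type cells 61 of 69 probes measured were lower, 18 of them at least 2-fold, and 3 rose at least 2-fold. Shares over all probes of the array were not counted, so these probe counts have no background of their own. Counted by gene, 6.57% of all genes were at least 2-fold lower and 6.84% higher in Batf2-/- cells. In wild-type cells these shares were 7.01% and 6.19%. All probes of a gene had the same sign in 14 of 19 genes in Batf2-/- cells and in 14 of 18 in wild-type cells, and the SD between probes of a gene had a median of 0.36 and 0.32.

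**Figure D4:**
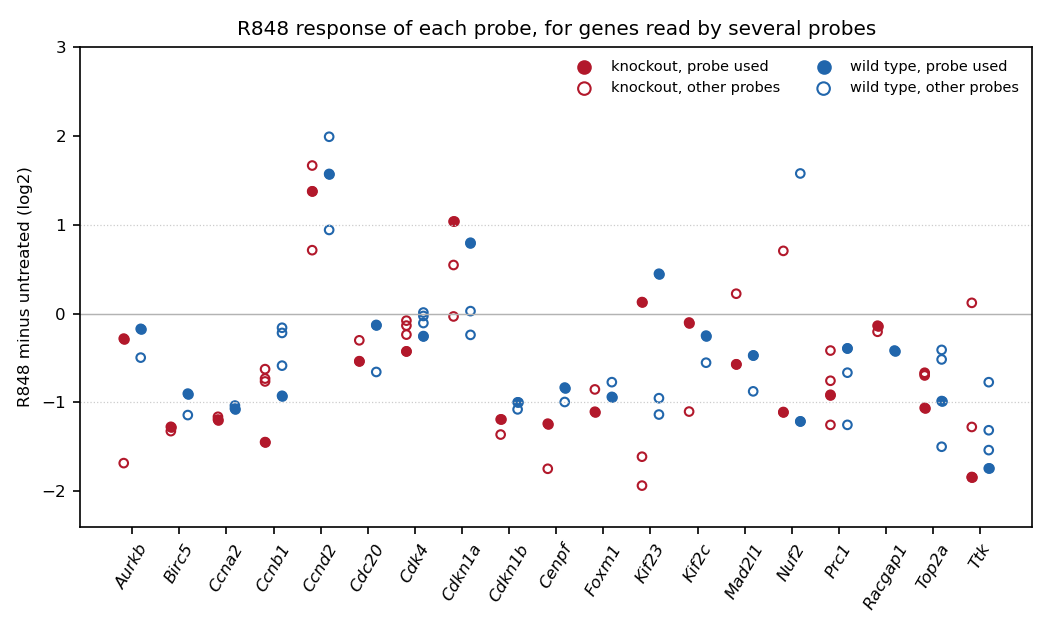
Response to R848 (R848 minus untreated, log2) of each probe of the 19 genes with several probes, in Batf2-/- cells (red) and wild-type cells (blue). Filled circles are the probe used for the gene and open circles its other probes. Those of Kif23, Nuf2 and Cdkn1a lie on both sides of 0 in both genotypes, those of Mad2l1 and Ttk in Batf2-/- cells and those of Cdk4 in wild-type cells.

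Other genes of the cell cycle were counted by lists that share no gene with the 39. Among other mitosis genes, 31 of 56 measured fell at least 2-fold in Batf2-/- cells and 21 of 56 in wild-type cells, with medians of -1.08 and -0.83. Of all genes 6.57% and 7.01% fell as much. None of the other mitosis genes rose at least 2-fold, against 6.84% and 6.19% of all genes. Kif20b, a kinesin of cytokinesis, gave -1.39 in Batf2-/- and -2.06 in wild-type cells. Cdc25c, the phosphatase that activates Cdk1, fell by 2.08 in Batf2-/- cells with a wild-type response of -0.21. The signal of Cdc25c was 9.07 with R848 and 38.3 untreated in Batf2-/- cells, against 30.9 with R848 and 35.8 untreated in wild-type cells, and the Batf2-/- array with R848 was the low one, as for Bub1. With R848, 11 of 56 of these genes were at least 2-fold lower in Batf2-/- than in wild-type cells (median -0.53), against 2.45% of all genes. In untreated cells 4 of 57 were so (median -0.33), against 3.18% of all genes.

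Of 40 genes of DNA replication, 7 fell at least 2-fold in Batf2-/- cells (median -0.58) and 13 in wild-type cells (median -0.68). Of all genes 6.57% and 7.01% fell as much. At that fold 1 replication gene rose in each genotype, against 6.84% and 6.19% of all genes. The contrast between the counts of the genotypes was not tested. Gmnn, which encodes geminin, the inhibitor of repeated origin firing, fell by 1.41 in Batf2-/- cells and fell by 1.83 in wild-type cells. The difference of responses had a median of 0.07 over these 40 genes, against -0.17 over the 39 genes and -0.16 over the other mitosis genes. Between genotypes, DNA replication genes had a median difference of -0.21 with R848 (3 of 39 at least 2-fold lower) and of -0.41 untreated (2 of 40). Of all genes 2.45% were as much lower with R848 and 3.18% untreated.

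Beside the counts of the lists that follow, 6.57% of all genes fell and 6.84% rose at least 2-fold in Batf2-/- cells. The shares in wild-type cells were 7.01% and 6.19%. Of 16 further cyclins, kinases and inhibitors of G1 phase, 2 fell and 4 rose at least 2-fold in Batf2-/- cells. In wild-type cells 3 fell and 1 rose as much. The largest change was that of Cdkn2b, which encodes the Cdk4 inhibitor p15, at 547 with R848 and 25.0 untreated in Batf2-/- cells, against 402 with R848 and 17.8 untreated in wild-type cells. It rose by 4.45 in Batf2-/- and by 4.50 in wild-type cells. Of 20 genes of the retinoblastoma, E2F and DREAM proteins, 5 fell at least 2-fold in each genotype. None was 2-fold higher in Batf2-/- cells, and 1 was in wild-type cells. The signal of E2f2, an E2F transcription factor, was 73.4 with R848 and 326 untreated in Batf2-/- cells, against 72.5 with R848 and 433 untreated in wild-type cells. E2f2 fell by 2.15 in Batf2-/- cells and fell by 2.58 in wild-type cells. The anaphase-promoting complex had 1 of 17 genes at least 2-fold lower in each genotype, 1 at least 2-fold higher in Batf2-/- cells, and medians of 0.07 and 0.06. Of 20 p53 targets other than Cdkn1a, 5 fell and 3 rose at least 2-fold in Batf2-/- cells. Of 19 measured in wild-type cells 3 fell and 1 rose as much. Gadd45b, a stress-induced growth arrest gene, rose by 2.03 in Batf2-/- and by 2.11 in wild-type cells. Trp53inp1, which encodes a partner of p53, gave -1.85 and -1.91.

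**Figure D5:**
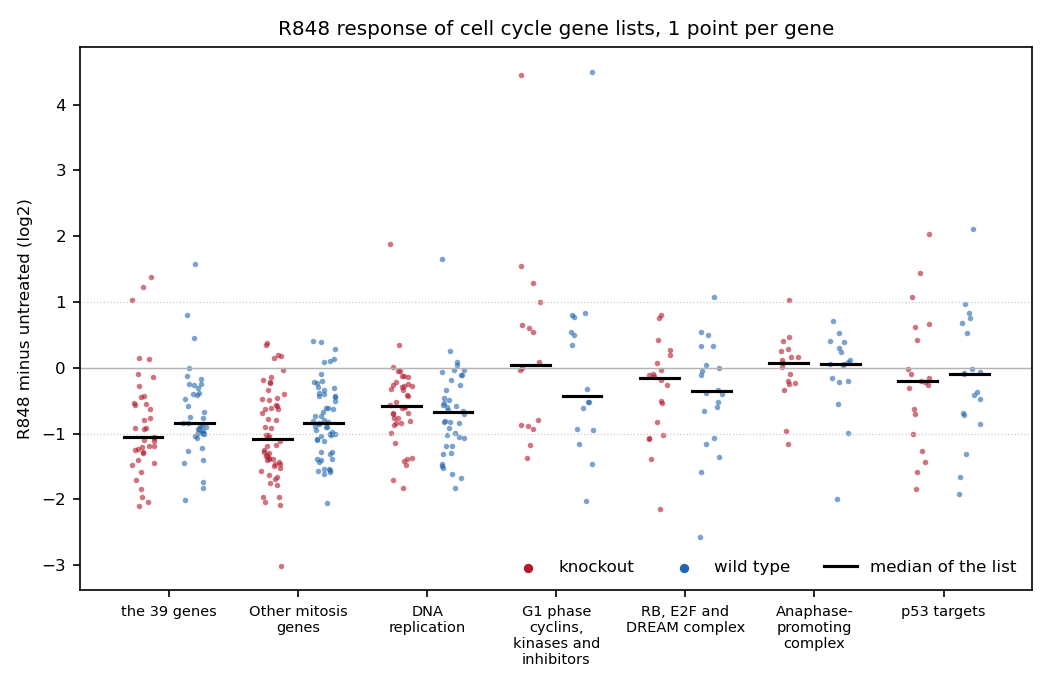
Response to R848 (R848 minus untreated, log2) of each gene in the 39 genes and in 6 other lists of cell cycle genes, in Batf2-/- cells (red) and wild-type cells (blue), with the median of each list as a black bar. The bars lie at -1.05 and -0.84 for the 39 genes and at -1.08 and -0.83 for the other mitosis genes, and close to 0 for the anaphase-promoting complex (0.07 and 0.06).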

How the data were processed

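RNA from 4 macrophage cultures, 1 per group by the labels, was hybridised to 1-colour (Cy3) Agilent arrays of 59305 non-control spots (56605 probes). The scanner files hold each spot's processed signal, an intensity on a linear scale that the authors' scanner software had already background-subtracted, per the file headers. The submitters' processing notes name Agilent Feature Extraction, version 11.5.1.1. The authors' deposited series table holds intensity multiplied by 1 factor per array (4.13 for Batf2-/- with R848, 4.06 for Batf2-/- untreated, 3.85 for wild type with R848 and 3.72 for wild type untreated, column medians 685, 719.96, 675 and 705), which was used for gene symbols and as an alternative. What set these factors is not stated in the labels or file headers.

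Outlier spots (70 to 115 per array) were left out, spots of 1 probe were averaged, and log2 of the signal minus the array's 75th percentile over probes was taken (Python 3.11.15, pandas 2.3.3, numpy 2.4.6, R 4.3.3, limma 3.58.1 for normexp, matplotlib 3.10.9). Of 56605 probes 40458 were named, through Entrez ID, RefSeq accession or symbol, for 25107 genes. A gene took its brightest probe well above background on at least 1 array and measured on all 4. A gene not well above background on 1 side of a comparison was given as a bound from the lowest signal well above background on that array. Where its own signal was above that lowest signal, as for Cdk1, the measured signal was used. A difference of 2-fold counted as higher or lower. For Prc1 a brighter probe was passed over because its spot was an outlier in untreated wild-type cells. Normexp used the median signal and local background median, because the scanner files used here hold no mean signal column. Scaling, filter, probe choice, fold, table and areas of the slide with a shifted signal were varied. The calculation was tested on simulated data.

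All 39 genes were to be accounted for, and of each other list up to 4 genes per direction, largest first, among those changed 2-fold with both arrays well above background. The genes and lists were chosen with earlier results of these data known. Promoters come from RefSeq (GRCm38.p6), and no genome coordinates of the arrays were used.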

Additional observations from a re-analysis of the deposited data

Results flagged for a closer look

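Of the 39 genes, 2 had responses to R848 of opposite sign in the genotypes, and the difference between the genotypes was not tested, because each group has 1 array. Kif4 rose by 1.23 in Batf2-/- cells with a response of -0.84 in wild-type cells, a difference of 2.07. Ccne1 gave 0.14 in Batf2-/- and -0.01 in wild-type cells, a difference of 0.15, which is below the median scanner error of a single difference, 0.21.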

How the results depend on the processing

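No paired analysis was possible because each group has 1 array. Of 145 counts and medians recomputed under alternatives, 122 stayed close to their values (counts within 1.5 times) and 23 moved. Counts of genes lower or higher given here are at 2-fold unless another fold is named. With normexp correction, which adds 50 to every signal, the members lower with R848 were 10 in Batf2-/- (1 higher, median -0.72) and 3 in wild-type cells (median -0.68). Between genotypes with R848 it left 0 higher and 0 lower (median -0.35), and for the difference of responses 0 and 0. Median scaling shifted all genes by 0.14 in the Batf2-/- and 0.16 in the wild-type response, gave medians of the 39 genes of -0.91 and -0.68, and changed the share of called genes that were higher to 63.1% (main setting 51.0%) and 61.0% (main setting 46.9%). Averaging probes gave a Batf2-/- median of -0.93, 1 gene lower between untreated genotypes, and turned the wild-type response of Nuf2 to 0.18. From the authors' deposited table, 3 genes were lower between genotypes with R848. At 1.5-fold, 24 fell and 2 rose in wild-type cells, 5 were lower between untreated genotypes, 16 lower and 2 higher between genotypes with R848, and 3 lower and 2 higher in the difference of responses. Taking the brightest RefSeq NM probe, an alternative chosen after seeing the data, left 0 genes higher in wild-type cells. No count or median moved under quantile normalisation, without a filter, with probes well above background on all 4 arrays, or with shifted areas of the slide left out. Of 1745 values of single genes 1495 moved by less than the root mean square SD among the spots of replicated probes. Of the others 249 moved further, and 1 that was at least 2-fold in the main setting reversed its sign. Changes of sign in values below 2-fold were not counted as reversals. For example, the untreated difference between genotypes was below 0 for 33 genes in the main setting. With normexp correction it was so for 30 genes, and with probes averaged for 37. Dim probes carry the widest technical error.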
